A study of Homo sapiens with 6 samples.

Results

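The marks H3K4me3 and H3K27me3 were set against each other within the Boost-Chir culture, over all peaks on chromosomes 1 to 22 of the culture's 2 peak lists. These lists held 45390 H3K4me3 peaks and 25893 H3K27me3 peaks, 71283 of the 142800 peaks in the 4 lists of the whole series. The cells were neural progenitors on day 11 of differentiation toward midbrain dopamine neurons, made from the human embryonic stem cell line H9, so a single line stands for the cells. Differentiation began in medium with sonic hedgehog (SHH C25II), LDN, SB431542, 0.7 µM CHIR99021 and the Rock inhibitor Y-27632. CHIR99021 blocks the kinase GSK3 and so activates canonical WNT signalling. It was raised to 7.5 µM from day 4 until day 10, and SHH, LDN and SB431542 were withdrawn within that time. On day 10 the medium was changed to one with BDNF, ascorbic acid, GDNF, TGFβ3, dibutyryl cAMP and 3 µM CHIR99021. The Low-Chir culture, used in the last paragraph only, has the same protocol text, and the labels do not state its CHIR99021 dose from day 4. Each mark was measured by chromatin immunoprecipitation and sequencing (ChIP-seq) in 1 library, with peaks called against the input of the same culture. There is thus no replicate, no test was made, and intervals on shares cover counting error only and treat loci as independent.

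H3K4me3 is placed on nucleosomes at the starts of active genes and of genes held ready for activation. H3K27me3 is deposited by Polycomb repressive complex 2, whose catalytic subunit is EZH2, and spreads over developmental regulators that a lineage does not use. Many promoters of such regulators carry both marks in stem cells and progenitors, a state called bivalent. In the midbrain, WNT1, FGF8, EN1 and OTX2 set the domain from which floor-plate progenitors, marked by LMX1A and FOXA2, give rise to dopamine neurons. The culture was assayed in bulk, and at a locus with peaks of both marks a mixture of cells with 1 mark each and cells with both marks together cannot be told apart.

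Neighbouring peaks of 1 mark at most 3 kb apart were merged into a region, and regions of the marks that shared at least 1 bp were taken as 1 locus. This gave 18699 loci. H3K4me3 alone was found at 12240 (65.5%, exact 95% interval 64.8 to 66.1), both marks at 2881 (15.4%, 14.9 to 15.9) and H3K27me3 alone at 3578 (19.1%, 18.6 to 19.7). H3K27me3 accompanied 3184 of 15424 H3K4me3 regions (20.6%, 20.01 to 21.29), and H3K4me3 accompanied 2930 of 6508 H3K27me3 regions (45.0%, 43.8 to 46.2). The latter count rests on the rule: H3K4me3 was met by 5697 of 25893 H3K27me3 peaks without joining, and by 1578 of the 6508 regions where peaks had to share 500 bp. The number of loci with both marks depended on the rule: it was 1563 where peaks of the marks had to share 500 bp and 1718 with the top 50% of each list by −log10 q. Across chromosomes the share of loci with both marks ran from 9.11% on chromosome 19 to 20.8% on chromosome 4.

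**Figure D1:**
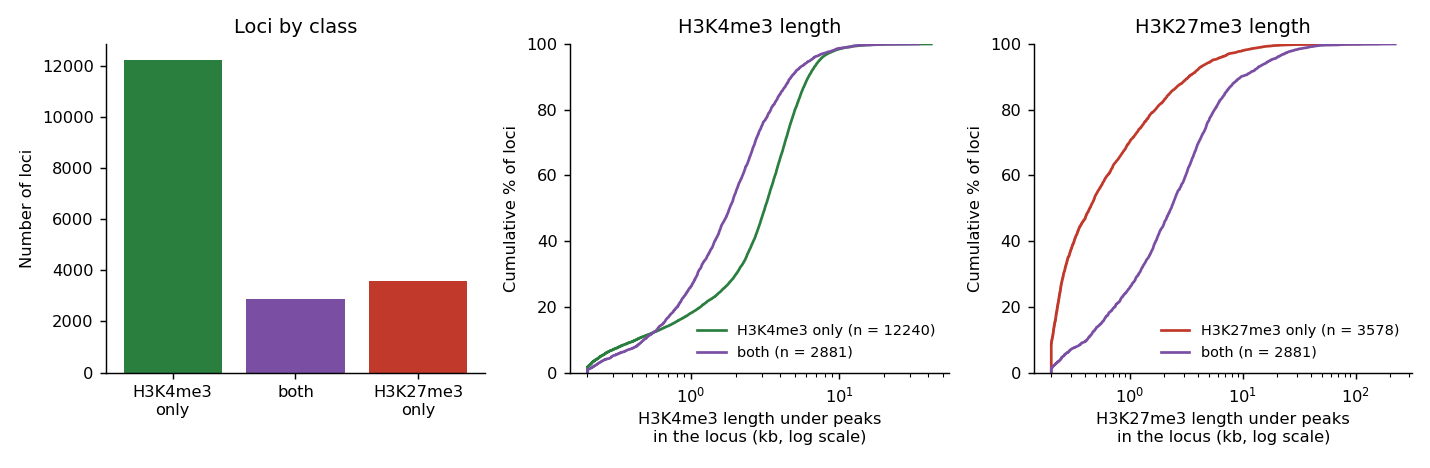
Number of loci in each class (left) and cumulative percentage of loci against the length under H3K4me3 peaks (middle) or H3K27me3 peaks (right) in the locus, in kb on a log scale, for the Boost-Chir culture. The curve of loci with both marks lies left of H3K4me3-only loci over most of its course in the middle panel and right of H3K27me3-only loci in the right panel.

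The promoter letters of 4 genes, 1 with H3K4me3 alone at its start, 1 with both marks, 1 with H3K27me3 alone and 1 with neither, are shown as 1 example for each class; the classes themselves rest on peak positions. They are the 250 bases before the start, 5′ to 3′ in the direction of transcription, from RefSeq on build GRCh38.p14. SP5, a transcription factor gene that WNT signalling switches on, had H3K4me3 only at its start. In its sequence (chr2:170715087-170715336, plus strand) capitals mark CTTTGA or its reverse complement TCAAAG, the core letters that TCF and LEF factors bind.
SP5: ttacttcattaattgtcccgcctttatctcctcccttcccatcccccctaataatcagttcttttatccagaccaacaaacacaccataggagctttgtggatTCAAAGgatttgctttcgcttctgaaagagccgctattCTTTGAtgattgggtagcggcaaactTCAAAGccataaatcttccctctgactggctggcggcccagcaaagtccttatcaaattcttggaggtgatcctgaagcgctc
These letters occurred 3 times, and 0.0696% of the 27305 promoters in the table held as many; 11.4% held at least 1 match. In the other sequences capitals mark CG, the dinucleotide whose clusters (CpG islands) both marks tend to occupy. OTX2, the homeobox gene of forebrain and midbrain, carried both marks (chr14:56810480-56810729, minus strand).
OTX2: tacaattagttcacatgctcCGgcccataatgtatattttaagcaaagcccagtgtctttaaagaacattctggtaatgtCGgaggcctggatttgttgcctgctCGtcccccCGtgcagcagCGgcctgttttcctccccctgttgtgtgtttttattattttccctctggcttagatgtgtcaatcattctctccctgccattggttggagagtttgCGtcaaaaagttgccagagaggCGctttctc
PAX6, the homeobox gene of forebrain, eye and spinal progenitors, carried H3K27me3 only at its start, while its wider locus holds both marks (chr11:31817962-31818211, minus strand).
PAX6: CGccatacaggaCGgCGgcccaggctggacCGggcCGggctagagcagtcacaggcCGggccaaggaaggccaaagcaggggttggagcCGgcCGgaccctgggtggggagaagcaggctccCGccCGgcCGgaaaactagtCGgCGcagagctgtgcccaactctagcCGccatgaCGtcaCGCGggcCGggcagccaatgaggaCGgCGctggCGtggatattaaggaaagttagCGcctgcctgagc
ALB, the liver's albumin gene, had neither mark (chr4:73404037-73404286, plus strand).
ALB: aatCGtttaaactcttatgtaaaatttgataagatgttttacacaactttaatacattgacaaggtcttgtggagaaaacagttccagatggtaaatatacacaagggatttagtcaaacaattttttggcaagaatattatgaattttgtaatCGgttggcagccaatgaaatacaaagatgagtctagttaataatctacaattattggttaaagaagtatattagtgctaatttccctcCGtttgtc
CG occurred 7 times before OTX2, 22 times before PAX6 and 3 times before ALB, counts that 58.4%, 27.6% and 76.4% of all promoters reached. SP5 had 6, which 61.3% reached, so marked promoters were found with few and with many CG in this window.

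H3K4me3 was wider and stronger where H3K27me3 was absent. The median H3K4me3 region spanned 3878 bp (quartiles 1931 and 5826) in H3K4me3-only loci and 2052 bp (972 and 3606) in loci with both marks. At least 4 kb lay under H3K4me3 peaks in 4247 of the H3K4me3-only regions (34.7%) and in 401 of those with both marks (12.6%). Enrichment, the authors' fold over the local background at a peak, was highest at a median of 10.4-fold (quartiles 7.08 and 12.95) per H3K4me3-only region. In loci with both marks the median was 6.43-fold (4.72 and 8.71). These values rest on a median of 46 and 26 reads at the highest summit. The medians of single peaks hardly showed the difference. Without joining, the median H3K4me3 peak was 448 bp wide and 4.47-fold enriched in the H3K4me3-only class, against 502 bp and 4.44-fold where it met H3K27me3. In that count an H3K4me3 peak of a locus with both marks is H3K4me3-only unless it met H3K27me3 itself. Classed by their joined regions, peaks had a median of 4.54-fold in H3K4me3-only regions and 4.36-fold with both marks. Their upper quartiles were 8.71-fold and 6.26-fold. The contrast thus lay in the higher peaks and in how far peaks run on around them, and little in the median peak.

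H3K27me3 showed the opposite order. Its regions spanned a median of 4177 bp (quartiles 1722 and 7329) where H3K4me3 was also present and 526 bp (241 and 3038) where it was not. Single-peak regions made up 1866 of the H3K27me3-only regions (52.2%) and 439 of those with both marks (14.98%). The highest peak reached a median of 5.34-fold (4.45 and 6.32) with both marks and 4.20-fold (3.72 and 4.89) with H3K27me3 alone, on 23 and 17 reads. The H3K27me3-only class thus holds many small, weakly enriched peaks beside a few very large domains. At least 10 kb lay under peaks in 72 of its regions (2.01%) and in 276 of the regions with both marks (9.42%). Without joining, the order of H3K27me3 widths was the same, at 535 bp with both marks and 331 bp alone.

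The share of regions with both marks followed enrichment in opposite directions for the 2 marks. By quartile of the highest H3K4me3 peak it went from 36.8% (exact 95% interval 35.3 to 38.4) to 30.2%, 12.1% and 3.80% (3.22 to 4.45). By quartile of the highest H3K27me3 peak it went from 19.9% (17.84 to 21.98) to 31.3%, 54.4% and 73.5% (71.2 to 75.6). A wider region has more bases that can meet the other mark, and for H3K27me3 the share climbed with width, from 20.2% below 1 kb to 77.4% at 16 kb and above. For H3K4me3 it had no single direction. The share was 29.4% below 1 kb, 38.8% between 1 and 2 kb, 22.8% between 2 and 4 kb and 9.56% between 4 and 8 kb, then 12.4% between 8 and 16 kb and 18.4% of the 125 regions of 16 kb and above. At equal width, H3K4me3 regions with both marks had the lower median top fold in every bin but the narrowest, such as 7.46 against 10.3 between 2 and 4 kb. Below 1 kb the values were 4.36 and 4.12. H3K27me3 regions with both marks had the higher median top fold in every width bin, but by little in narrow ones. The values were 3.96 against 3.91 below 1 kb, 4.99 against 4.69 between 2 and 4 kb and 8.39 against 7.49 at 16 kb and above. Over all widths they were 5.34 against 4.20.

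**Figure D2:**
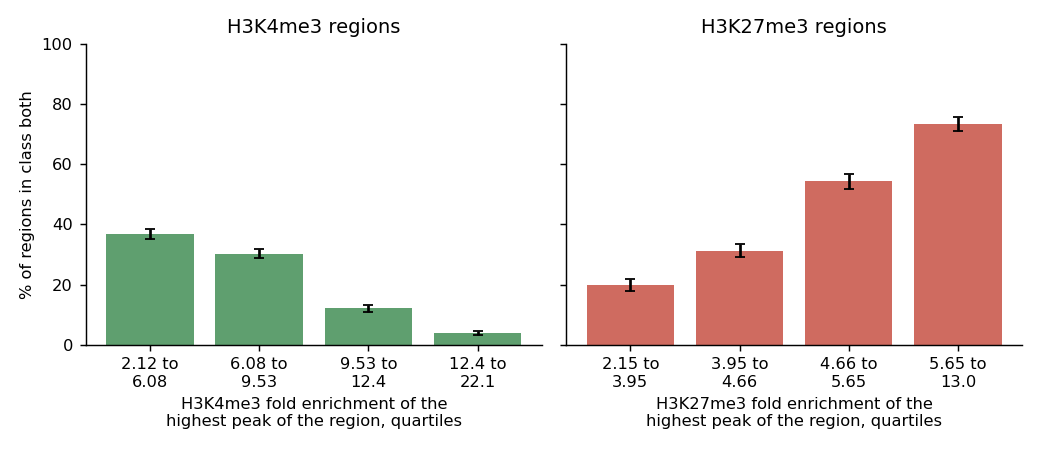
Percentage of regions in loci with both marks, by quartile of the fold enrichment of the highest peak of the region, for H3K4me3 (left) and H3K27me3 (right); error bars are exact 95% binomial intervals. The percentage drops from 36.8 to 3.80 with H3K4me3 enrichment and climbs from 19.9 to 73.5 with H3K27me3 enrichment.

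Within the 2881 loci with both marks, H3K4me3 usually sat inside or at the edge of H3K27me3. In 1316 loci (45.7%, 43.9 to 47.5) a single H3K4me3 region lay inside a single H3K27me3 region, and in 428 (14.9%, 13.6 to 16.2) the reverse held. Another 898 (31.2%) overlapped in part, and 239 (8.30%) had several regions of a mark. H3K27me3 peaks covered more bases than H3K4me3 peaks in 1726 loci (59.9%). The highest H3K4me3 summit had an H3K27me3 peak reaching more than 500 bp away on both sides in 1643 loci (57.0%), and on 1 side in 1177 (40.9%).

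The summits of the marks were close but seldom at the same place. From the highest H3K4me3 summit to the nearest H3K27me3 summit the median distance was 597 bp (quartiles 273 and 1131), and 70.8% of loci were within 1000 bp. Between the highest summits of each mark it was 1385 bp. The H3K4me3 summit itself lay under an H3K27me3 peak in 1111 loci (38.6%, 36.8 to 40.4). Coverage by H3K27me3 was 44.7% and 43.8% at 1000 bp on either side, 35.6% and 34.9% at 250 bp and 38.6% at the summit, a shallow dip around the H3K4me3 summit. A median of 41.3% of the H3K4me3 length was also under H3K27me3 peaks, and a median of 27.6% of the H3K27me3 length under H3K4me3 peaks. In 111 loci (3.85%) no base was shared between peaks, only between the joined regions.

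**Figure D3:**
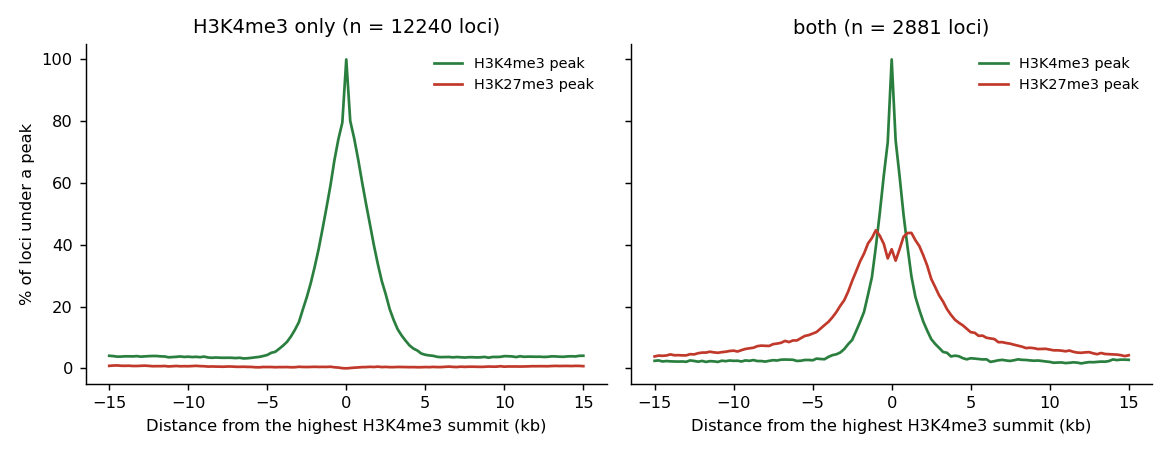
Percentage of loci under an H3K4me3 peak (green) or an H3K27me3 peak (red) against the distance in kb from the highest H3K4me3 summit, for H3K4me3-only loci (left) and loci with both marks (right). On the right, H3K27me3 reaches 44.7% and 43.8% at 1 kb on either side and is lower in between; by construction H3K4me3 is at 100% at the summit, and H3K27me3 is absent from the H3K4me3-only loci themselves.

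The top fold of H3K4me3 and its overlap with H3K27me3 varied with the extent of H3K27me3 in the locus. For the overlap this is largely built into the grouping, since longer H3K27me3 can cover more of the H3K4me3. Where H3K27me3 peaks covered less than 0.5 kb (387 loci), the median top H3K4me3 peak was 8.68-fold and 9.82% of H3K4me3 summits lay under H3K27me3. With 2 to 5 kb of H3K27me3 (904 loci) these values were 6.26-fold and 47.7%. With 10 kb or more (281 loci) they were 6.21-fold and 65.1%, and the median share of H3K4me3 length under H3K27me3 was 84.2%. Between 5 and 10 kb the fold was 5.99, so it did not drop further at the longest H3K27me3. The median length of H3K4me3 had no single direction, at 2597 bp below 0.5 kb of H3K27me3, 1499 bp at 2 to 5 kb and 2636 bp at 10 kb or more.

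Outside shared loci the marks were far apart in unequal measure. The median distance from an H3K4me3-only locus to the nearest H3K27me3 region was 141950 bp (quartiles 49091 and 341070), and 8.45% had such a region within 10 kb. The median distance from an H3K27me3-only locus to the nearest H3K4me3 region was 27044 bp (7586 and 84652), and 29.4% had one within 10 kb. The numbers of regions that could be met differed, with 15424 for H3K4me3 and 6508 for H3K27me3.

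The widest loci of each class were set out by position on hg19, with a gene whose known start lies in them; genes for these loci that are in no list below were named after the loci had been seen. The widest loci with both marks were the HOX clusters, the homeobox genes that pattern hindbrain and spinal cord. The HOXC cluster on chromosome 12 at 54281870 to 54531201 had 225 kb under H3K27me3 and 5.13 kb under 11 H3K4me3 peaks. HOXB on chromosome 17 at 46558928 to 46757238 had 164 kb and 5.8 kb, HOXA on chromosome 7 at 27128163 to 27298368 had 164 kb and 8.76 kb, and HOXD on chromosome 2 at 176917589 to 177061560 had 135 kb and 6.19 kb. The fifth, on chromosome 10 at 102819485 to 102931775, holds TLX1, a homeobox gene, with 75.4 kb and 4.22 kb. In these domains H3K4me3 was limited to short islands.

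Loci with both marks that ranked first by H3K4me3 fold looked different. Among them were those with the starts of ETV5 (19.1-fold, with 0.35 kb of H3K27me3), EN1 (18.4-fold, 4.28 kb) and FOXP4 (17.9-fold, 0.7 kb). Another lay on chromosome 8 at 96143843 to 96150238 (17-fold, 0.2 kb). ETV5 is an ETS factor downstream of FGF signalling, EN1 a homeobox gene of the midbrain-hindbrain region and FOXP4 a forkhead factor. Of the loci named here, only that of EN1 had 1 kb or more of H3K27me3.

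The widest H3K4me3-only loci spanned 35.2 to 53.0 kb. The first, on chromosome 17 at 7107476 to 7160489, was joined from 38 peaks and holds the start of DVL2, a transducer of WNT signals. A single gene was named for each of these loci, and starts of other genes in them are not given. Next came the locus of SKIDA1, chromosome 10 at 21781481 to 21826105 (41.9 kb covered), and chromosome 3 at 11645480 to 11687358, holding a start of VGLL4, a cofactor of TEAD factors, with 33.7 kb. CRTC2 on chromosome 1 (24.9 kb under peaks) and RGL2 on chromosome 6 (23.1 kb) completed the 5. By fold, IGF2BP1, which encodes an RNA-binding protein of progenitors, ranked first at 22.1-fold with 19.6 kb. It was followed by PPP2CA (21.4), XPO1 (20.4), HNRNPLL (20.1) and ZNF638, which was slightly lower. PPP2CA encodes a catalytic subunit of protein phosphatase 2A and XPO1 a nuclear export receptor.

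H3K27me3-only loci were led, by width as well as by fold, by a domain on chromosome 15 from 89890398 to 90032923. It had 109 kb of H3K27me3 in 78 peaks and a top fold of 12.97. The start of MIR9-3, a microRNA gene of the neural lineage, lies in it. Its mature product, from RefSeq, is shown with the seed (bases 2 to 8) in capitals; other miR-9 genes make the same mature sequence.
hsa-miR-9-5p: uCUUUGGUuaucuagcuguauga
Chromosome 2 held the next domain, which ran from 121181661 to 121274163 with 53.5 kb of H3K27me3, and another from 121278711 to 121353330 with 49.3 kb. Those with GATA4, an endoderm and heart factor (66.5 kb), and HOXB13, the most posterior gene of its cluster (60.5 kb), were also among the 5 widest. By fold, LHX3 (11.6), ONECUT3 (10.8), TLX3 (10.4) and NKX2-1 (10.2) followed. All 4 encode homeobox factors of neuronal subtypes or, for NKX2-1, of the ventral forebrain.

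Known genes were classed by the regions that reached within 2.5 kb of a transcript start on hg19, 1 start per gene, for 164 genes in 14 lists. H3K4me3 alone was found at 53 genes, both marks at 81, H3K27me3 alone at 21 and neither at 9. Of the 134 genes with H3K4me3, 60.4% also had H3K27me3, beside 20.6% of all H3K4me3 regions. These 2 shares follow unlike rules. At a gene, regions of the marks need only reach the window, while among all regions they must share at least 1 bp. Unless the window is named, a length below is that under peaks of the joined regions that reach into it. A fold is that of the highest peak in the window. A mark called alone is so in the window, and the wider locus can hold the other mark. The lists were chosen mostly for developmental regulators, and the part of that choice in the 60.4% was not tested. All 15 housekeeping genes had H3K4me3 alone, as had all 7 genes of the list of chromatin regulators, which also holds CTNNB1 and GSK3B. GAPDH had 4.46 kb of H3K4me3 in the window at 13-fold, ACTB 3.86 kb at 8.74-fold, HSP90AB1, with the widest H3K4me3 of its list, 14 kb in its region, and GSK3B, the target of CHIR99021, 11.5 kb. Of 6 genes of liver, blood and islets, 3 had neither mark, 1 had a small H3K27me3 peak (HBB, 0.231 kb) and 2 had a small H3K4me3 peak, such as APOA1 (0.224 kb).

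**Figure D4:**
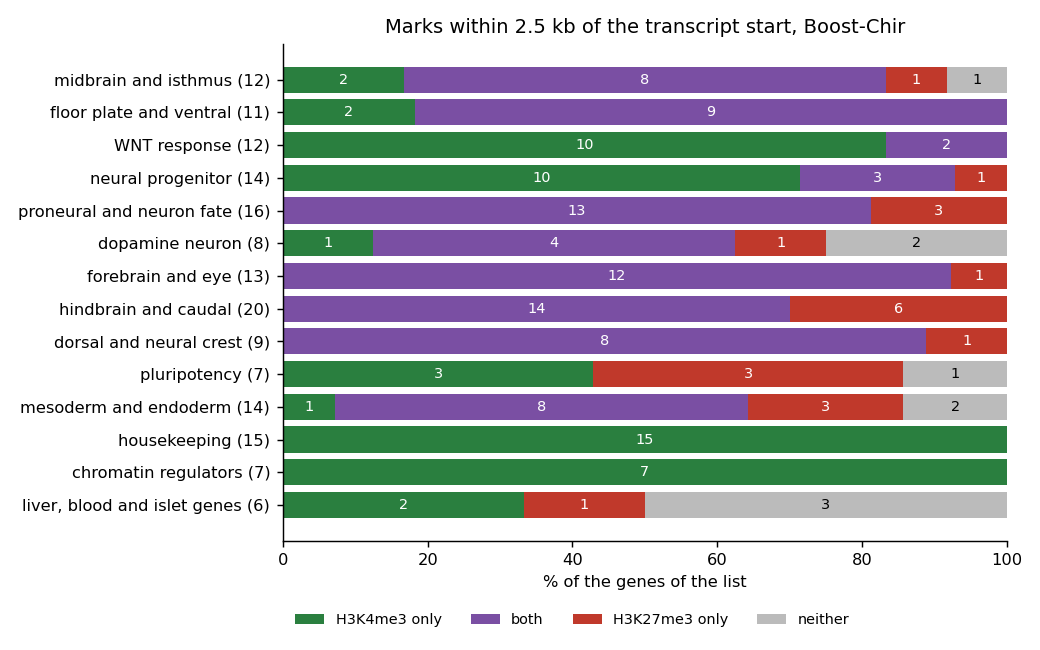
Percentage of the genes of each list with H3K4me3 only, both marks, H3K27me3 only or neither within 2.5 kb of the transcript start in the Boost-Chir culture; the number of genes is printed in each bar and the list size after its name. WNT response and neural progenitor genes are mostly H3K4me3 only (10 of 12 and 10 of 14; both marks at 16.7% and 23.1% of those with H3K4me3, beside 20.6% of all H3K4me3 regions), while no gene of the forebrain, hindbrain, proneural or dorsal lists is.

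The label was read against fixed markers. All 7 markers of midbrain floor-plate progenitors (LMX1A, FOXA2, OTX2, EN1, LMX1B, CORIN and SHH) had H3K4me3 at their start, 5 of them with H3K27me3. For comparison, 134 of all 164 listed genes had H3K4me3. Of 6 neural progenitor markers 5 had it, PAX6 being the exception. Among 7 pluripotency markers 3 had it, and POU5F1 and NANOG did not. H3K4me3 was also present at 5 of 5 forebrain markers, 5 of 6 hindbrain markers, 2 of 3 neural crest markers and 6 of 6 of mesoderm and endoderm. In the first 3 of these groups every one of those genes also had H3K27me3, and in the last 5 of 6 did. H3K4me3 was thus found at most markers of lineages other than the labelled one too, except for pluripotency, and no difference between these marker sets was tested.

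Among 12 genes of the midbrain and the isthmus, the signalling border of midbrain and hindbrain, 2 had H3K4me3 alone, 8 both marks, 1 H3K27me3 alone and 1 neither. Both marks were at 80.0% of those with H3K4me3, beside 60.4% over all lists. EN1 had 32.2 kb of H3K4me3 in its region at up to 18.4-fold and no H3K27me3 within 2.5 kb of the start. Its wider locus is of the class with both marks, since 4.28 kb of H3K27me3 lies further upstream. PAX5, a paired-box factor of the isthmus, had 12.9 kb of H3K4me3 alone at 8.38-fold, but H3K27me3 was met within 5 kb. OTX2 had 15.9 kb of H3K4me3 at 15.6-fold beside 6.65 kb of H3K27me3 at 5.41-fold. PAX2 had 19.4 kb at 12.1-fold beside 5.47 kb at 4.56-fold. In these 4 H3K4me3 was the broader mark.

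At EN2, GBX2 and WNT1 H3K27me3 was the broader mark. EN2, the partner of EN1, had 4.55 kb of H3K4me3 within 21.9 kb of H3K27me3, and GBX2, the anterior hindbrain factor opposed to OTX2, 5.41 kb within 17.6 kb. FGF8, the isthmic signal, again had the broader H3K4me3, 8.98 kb of H3K4me3 at 4.32-fold with 0.945 kb of H3K27me3. WNT1 had 23.3 kb of H3K27me3 at 8.96-fold and no H3K4me3 in the window. DMBX1 had neither mark at the start used.

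Both marks were at 81.8% of floor-plate and ventral genes with H3K4me3, beside 60.4% over all lists. In this list, 2 of 11 genes had H3K4me3 alone and 9 both marks. The forkhead genes FOXA2 and FOXA1, which head the floor-plate programme, were the former, with 19.6 and 17 kb of H3K4me3 at 15.1 and 14.3-fold. The LIM-homeobox genes LMX1A and LMX1B carried both, with 5.9 and 7.39 kb of H3K4me3 against 9.41 and 12.8 kb of H3K27me3. SHH, the ventral signal, had 5.47 kb of H3K4me3 and 11.6 kb of H3K27me3. CORIN, a surface protease used to sort floor-plate cells, had 2.09 and 0.523 kb, and lost H3K27me3 with the top 50% of each list. MSX1 had 12.4 and 11.5 kb and NKX6-1, a ventral homeobox gene, 9.25 and 2.46 kb, but with a window of 1 kb both had H3K4me3 alone. NKX2-2, expressed beside the floor plate, had 3.9 kb of H3K4me3 under 22.5 kb of H3K27me3, the most of the list.

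Of 12 WNT response genes, 10 had H3K4me3 alone and 2 both marks. The share with both marks, 16.7% of those with H3K4me3, was near the 20.6% of all H3K4me3 regions. The latter share asks for a base shared between regions and the former does not. At TCF7 the regions of the marks did not overlap. SP5 had the most H3K4me3, 18.1 kb at 19.4-fold, on either side of the promoter letters shown above. AXIN2, the feedback scaffold that promotes β-catenin breakdown, had 17.4 kb at 12.9-fold. DKK1, a secreted WNT antagonist, had 13.1 kb at 15.6-fold, and LEF1, a DNA-binding partner of β-catenin, 15.3 kb at 12.4-fold. The genes with both marks were TCF7 and LGR5, the receptor for R-spondins, which had 2.92 kb of H3K4me3 and 4.44 kb of H3K27me3.

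**Figure D5:**
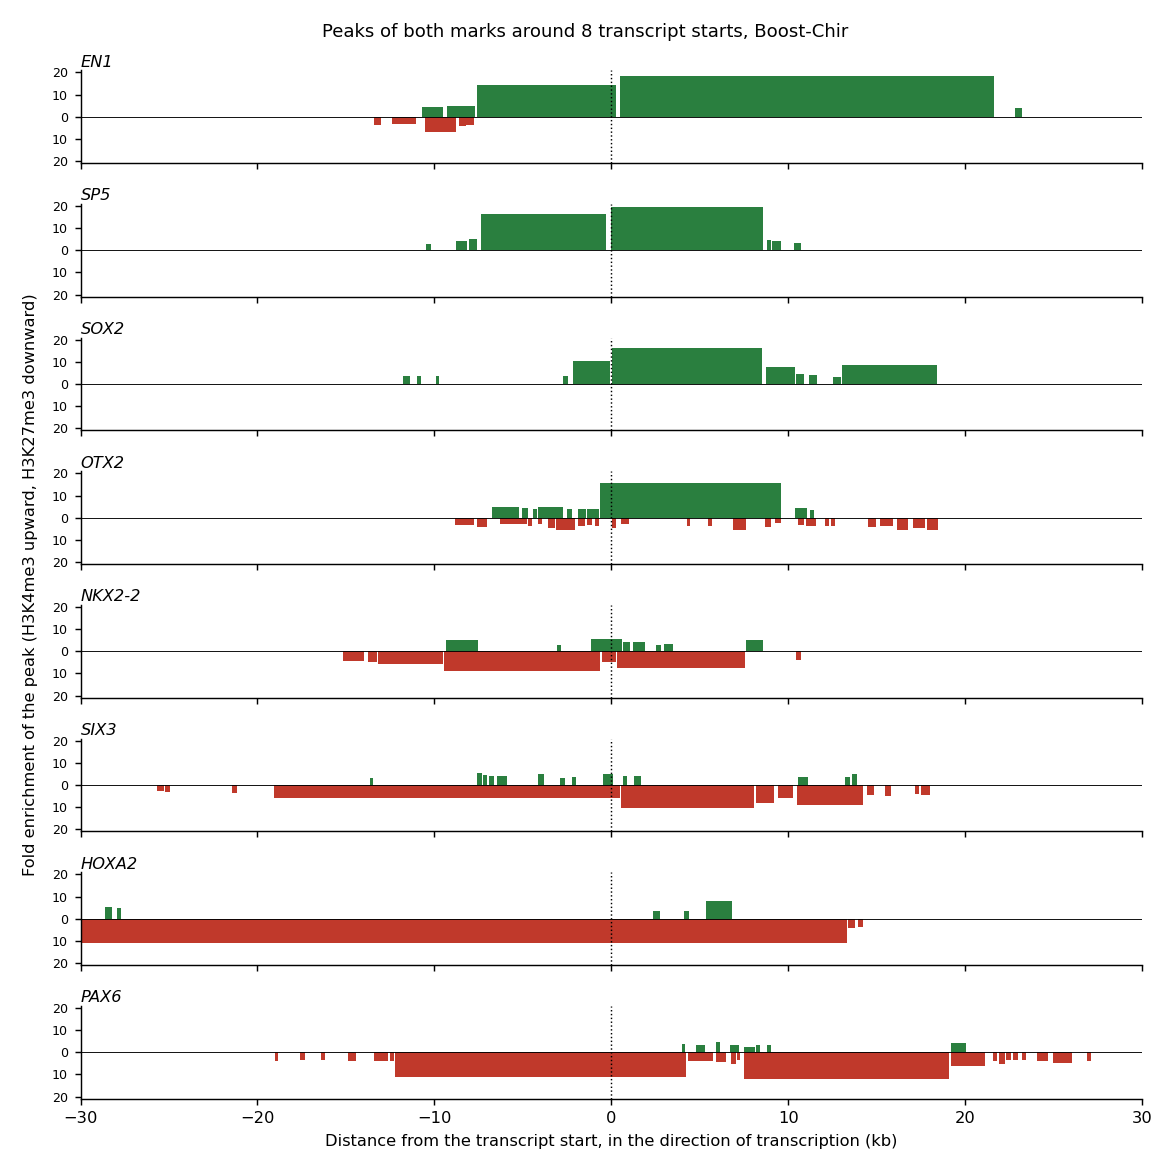
Peaks around the transcript starts of 8 genes in the Boost-Chir culture, against the distance from the start in kb in the direction of transcription; each box is a peak drawn at its single fold enrichment, H3K4me3 (green) upward and H3K27me3 (red) downward. EN1, SP5 and SOX2 show H3K4me3 alone at the start, OTX2 a broad H3K4me3 peak with small H3K27me3 peaks, and NKX2-2, SIX3, HOXA2 and PAX6 H3K27me3 domains with short or no H3K4me3 peaks.

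Of 14 neural progenitor genes, 10 had H3K4me3 alone, 3 both marks and 1 H3K27me3 alone, so that 23.1% of those with H3K4me3 had both. ZIC2, a zinc-finger factor of the dorsal neural tube, had the widest H3K4me3 at 22.2 kb, followed by SOX2, the progenitor factor, with 19.2 kb at 16.1-fold. HES1, the Notch effector that holds progenitors back from differentiation, had 7.1 kb at 14-fold. SOX1 carried 9.41 kb of H3K4me3 and 15.3 kb of H3K27me3. PAX6 stood apart, with 38.0 kb of H3K27me3 at 11.1-fold in the window and no H3K4me3 there. Short H3K4me3 peaks lay further downstream, the nearest of them within 5 kb of the start. They lie inside the H3K27me3 region of PAX6, so its wider locus is of the class with both marks.

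Proneural and neuron fate genes, which drive cells out of the progenitor state, had H3K27me3 at 16 of 16 starts, 13 of them with H3K4me3. Over all lists H3K27me3 was at 102 of 164 starts. NEUROG2, the proneural gene of midbrain dopamine progenitors, had 6.41 kb of H3K4me3 at 9.18-fold within 16.4 kb of H3K27me3. PTF1A, a factor for inhibitory neurons, had the longest H3K27me3 of those with both marks, 37.2 kb over 0.683 kb of H3K4me3. GATA2, which specifies inhibitory midbrain neurons, had 22.2 kb of H3K27me3 alone.

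Genes of the mature dopamine neuron fell into every class. TH, the enzyme that makes L-DOPA, and ALDH1A1 had neither mark at the start, and SLC6A3, the dopamine transporter, had 9.12 kb of H3K27me3 alone. NR4A2, an orphan receptor needed for dopamine neurons, had 4.56 kb of H3K4me3 at 11.2-fold and 6.13 kb of H3K27me3. PITX3, a homeobox factor of the same neurons, had 5.42 and 14 kb. DDC, the decarboxylase, had 0.674 kb of H3K4me3 and no H3K27me3.

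Listed genes of other parts of the neural axis carried H3K27me3 throughout, but the mark was also common in the midbrain and floor-plate lists. It was at 9 of 12 midbrain and isthmus genes, 9 of 11 floor-plate and ventral genes and 102 of all 164 genes. In the forebrain and eye list it was at 13 of 13 starts, 12 with H3K4me3. SIX3, an eye-field gene, had 34.5 kb of H3K27me3 over 3.43 kb of H3K4me3, and DLX5 41.0 over 5.26 kb. NKX2-1 had 37.8 kb of H3K27me3 and no H3K4me3. In the hindbrain and caudal list H3K27me3 was at 20 of 20, 14 with H3K4me3. Most of these are HOX genes, and those of a cluster, HOXB13 apart, lie in the same H3K27me3 region. The 20 starts are thus not separate domains. HOXA2 had 0.163 kb of H3K4me3 in the window at 3.46-fold and HOXD13 1.12 kb at 5.99-fold, with H3K27me3 over the whole window at each, and HOXB1 had no H3K4me3. The HOXA2 peak was lost with the top 75% or top 50% of each list and with a window of 1 kb.

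In the dorsal and neural crest list 8 of 9 genes had both marks and SOX10 had 1.39 kb of H3K27me3 alone. Over all lists 81 of 164 genes had both marks. PAX3 and PAX7, paired-box genes of the dorsal neural tube, had 8.85 and 2.25 kb of H3K4me3 with 25 and 30.0 kb of H3K27me3; the PAX7 H3K4me3, at 3.59-fold, was lost with the top 50% of each list. TFAP2A, an ectoderm and crest factor, had the longest H3K27me3 of the list, 47.7 kb. For mesoderm and endoderm, 8 of 14 had both marks, 3 H3K27me3 alone, 1 H3K4me3 alone and 2 neither. T (brachyury), the mesoderm factor, had 5.86 kb of H3K4me3 and 8.84 kb of H3K27me3, GATA6 2.05 and 20.5 kb, and HAND1 0.651 and 28.5 kb. TBX5 had 74.3 kb of H3K27me3 in its region and no H3K4me3 in the window, and TBX6 1.61 kb of H3K4me3 alone. The TBX5 region spans 94.2 kb and is not among the 5 widest H3K27me3-only loci, the second of which spans 92.5 kb. Its wider locus is thus of the class with both marks.

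Pluripotency genes were divided. POU5F1 and NANOG, core factors of the stem cell state, had H3K27me3 alone over 1.54 and 1.4 kb at 4.5 and 5.14-fold. UTF1 had 16.9 kb of H3K27me3 at 10.1-fold. LIN28A, an RNA-binding protein also made in early neural progenitors, had 8.9 kb of H3K4me3 alone at 14-fold, and DPPA4 and SALL4 had 3.02 and 5.19 kb. ZFP42 had neither mark.

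Set beside the Low-Chir culture, the division of regions was close. There 21.5% of 15067 H3K4me3 regions and 47.5% of 6250 H3K27me3 regions met the other mark, and 138 of the 164 genes had the same class. The background at a summit, which goes with depth, was most often 2.67 reads for H3K4me3, against 2.21 in Low-Chir, and 3.03 for H3K27me3, against 3.12; the part of depth in the differences below was not tested. The other 26 genes included 4 WNT response genes, all with both marks in Low-Chir and H3K4me3 alone in Boost-Chir. Within 2.5 kb of the start, Low-Chir had 3.87 kb of H3K27me3 at SP5, 1.77 kb at DKK1, 1.44 kb at LEF1 and 4.17 kb at NOTUM, and Boost-Chir had 0 kb at each. EN1 (2.93 kb) and PAX5 (4.8 kb) likewise had H3K27me3 near the start in Low-Chir and none there in Boost-Chir. At EN2 the window held 4.13 and 4.43 kb of H3K27me3 in Boost-Chir and Low-Chir, and it held 3.5 kb of H3K4me3 in Boost-Chir against 0 kb. PAX6 and NKX2-1 went the other way, with 2.1 and 2.62 kb of H3K4me3 in Low-Chir against 0 kb. SHH had 4.79 kb of H3K27me3 in Boost-Chir, where Low-Chir had 0 kb. Genes of the same class in both cultures could differ in length too. The window held 4.63 kb of H3K27me3 at LMX1A in Boost-Chir against 0.247 kb in Low-Chir, and 4.83 against 0.302 kb at NKX2-2. MSX1 went the other way, with 0.231 against 3.08 kb. Others of the 26 rest on very little, such as 0.021 kb of H3K27me3 at DLL1 and 0.246 kb at B2M in Low-Chir. Each value comes from 1 library, so none of these differences has a replicate check.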

How the data were processed

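The 2 antibody libraries of Boost-Chir were described, with those of Low-Chir beside them in 1 paragraph; the inputs were not used. The submitters' processing notes name cutadapt 1.6, BWA 0.7.12, Picard and build hg19; which program called peaks, and with what threshold, is not given in the sources used here. Peak names in the deposited lists show that each library was called on its own against its condition's input. The authors give every peak a summit, a score, a fold enrichment (a ratio over local background) and p-value and q-value as −log10; the deposited score was not used. The marks' fold values were not compared with each other.

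Reads at a summit were solved from the deposited fold and −log10 p, assuming (reads + 1) over (background + 1), a Poisson tail and, for Boost-Chir, reads scaled by 1 (H3K4me3) or 0.9772 (H3K27me3). This returned −log10 p within 0.001 for 100% of peaks, with a median of 18 reads for each Boost-Chir mark.

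Positions are on hg19, counted from 1. No hg19 annotation was at hand: starts of the 164 listed genes, and of 19 added after the ranked loci had been seen, were written from knowledge of hg19, so small errors in position are possible. The GRCh38.p14 gene table gave the same chromosome for 164 of 164 and 19 of 19, with 0 neighbours out of order. The promoter table matched 114 of 164 (69.5%), so a comparison of CG content between classes would be void and was not made. Genes given values are a set list, those with the longest mark of their list and those at the 5 widest and 5 most enriched loci of each class; a few of these are not reported here. Some others, and those that differ from Low-Chir, were chosen after their values were seen. The members and lists were chosen with earlier results of these data known. Python 3.11.15, numpy 2.4.6, scipy 1.17.1 and matplotlib 3.10.9 were used, and the classing was tested on simulated loci.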

Additional observations from a re-analysis of the deposited data

How the results depend on the processing

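No paired analysis was possible because the marks were assayed in 1 library each. The 14 alternatives gave 138 values for the 20 results, of which 112 were within 1.5 times the value in the text and 26 were not; the cause of these shifts was not tested. Without joining, loci numbered 39859 with H3K4me3 alone and 20196 with H3K27me3 alone, and 5531 H3K4me3 and 5697 H3K27me3 peaks met the other mark. Median widths were then 448 and 502 bp for H3K4me3 alone and with both marks, and 331 and 535 bp for H3K27me3, so the H3K4me3 order of widths turned. The H3K4me3-only fold was 4.47, the summit distance 371 bp and the distance of H3K27me3-only loci to H3K4me3 6572 bp. Joined within 1 kb, H3K27me3-only loci numbered 6367, with median widths of 350 bp and, in loci with both marks, 2515 bp, and a distance of 17760 bp. With the top 50% of each list, 1718 loci had both marks, with 1839 H3K4me3 and 1737 H3K27me3 regions, the H3K27me3-only width was 1063 bp and 38 genes had H3K27me3 alone. With 500 bp shared between peaks, 1563 loci had both marks, with 1682 and 1578 regions. The median fold over peaks was 4.87 in H3K4me3-only regions, the H3K27me3 length under peaks 2259 bp with both marks, and the distance between highest summits 1385 bp. Over the 8 alternatives for genes, 141 to 164 of 164 genes had the class given in the text, the fewest with the top 50% of each list. Reads at the summit, a median of 17 to 46 per region, limit what can be called: a mark listed as absent is one that did not pass the peak caller in 1 library.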
